A study of Mus musculus with 6 samples.

Results

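Cadherins and protocadherins were described across every table of a study that isolated intact nuclei from formalin-fixed, paraffin-embedded (FFPE) mouse brain. The members were all mouse genes whose symbol began with Cdh and a digit or with Pcdh, pseudogene symbols left out. They numbered 35 of the 25696 mouse genes listed in any table. By role there were 4 classical type I cadherins, 13 type II cadherins, the GPI-anchored Cdh13, 4 other cadherins, 4 delta-1 and 5 delta-2 protocadherins, 3 other non-clustered protocadherins and 1 clustered protocadherin, Pcdha1. Pcdha1 was the only gene of the clustered protocadherin loci that the tables listed, and because the isoforms of that locus share exons, its counts could not be assigned to 1 isoform.

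Cadherins are calcium-dependent adhesion proteins of the cell surface. Classical cadherins bind the same or a related cadherin on the neighbouring cell and link to actin through catenins, whereas protocadherins bind more weakly and use other partners inside the cell. In brain, different neurons and glia carry different combinations of them, and they are best known for sorting cells, guiding axons and shaping synapses.

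All samples came from C57BL/6J mice 8 to 12 weeks old, and the labels gave the tissue as cortex. FFPE scrolls of 50 µm were cleared of paraffin by 1 of 3 methods (mineral oil with heat, abbreviated oil, or xylene used either heated or at room temperature), rehydrated through ethanol and lysed, and nuclei were sorted. Unfixed frozen nuclei, named as frozen only in the authors' annotation tables, were the control without fixation, paraffin or clearing, and the animals behind the wells were not named. The SCRB-seq table, a method that counts the 3′ ends of transcripts, held 16 wells of each clearing method and 16 frozen wells, 8 with 10 nuclei and 8 with 100. The SMART-Seq2 table, a full-length method, held 3 wells a group, with 100, 50 and 10 nuclei. Single nuclei on plates comprised 143 FFPE and 137 frozen nuclei in 1 table, and FFPE nuclei in 2 further batch tables (98 and 134). Droplet sequencing gave 7031 FFPE nuclei that the authors had sorted into 12 classes.

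Depth differed widely: 7512 to 167144 mouse counts per SCRB-seq well, 270363 to 942966 per SMART-Seq2 well, medians of 47887 (FFPE) and 255329 (frozen) per plate nucleus, and a median of 325 transcripts, counted by unique molecular identifiers (UMIs), per droplet nucleus. The plate tables overlapped: 134 of the 143 FFPE nuclei were the batch 2 nuclei, and 1 of the other 9 held 21.1% of all FFPE counts. Against the label of cortex, markers of cerebellar granule neurons made up 0.250% of counts in SCRB-seq FFPE wells (0.0374 to 0.692%) and 0.00688% in frozen wells (0 to 0.0186%), where Gabra6, Cbln3 and Barhl1 were at 0. Cortical projection neuron markers made up 0.0552% (0.00958 to 0.117%) and 0.155% (0.101 to 0.203%). In the SMART-Seq2 wells the granule markers stood at 0.439% (0.227 to 0.708%) in FFPE and 0.0163% (0.0122 to 0.0226%) in frozen wells, with Barhl1, Cbln1, Cbln3, Gabra6 and Zic1 at 0 in all 3 frozen wells. FFPE and frozen material therefore differed in marker content as well as in fixation, and the part of either in the differences reported here was not tested.

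The members' genes are long. The gene models of the 35 members spanned 4.54 to 1550 kb with a median of 128 kb (GENCODE M21, GRCm38), against a median of 17.4 kb over 21951 protein-coding genes. Of these, 5 type II cadherins lie in a row on chromosome 15 (chr15:13028701-23474418, 10.4 Mb), in the order Cdh6, Cdh9, Cdh10, Cdh12 and Cdh18, with 0 protein-coding genes between any neighbours. Cdh12 (chr15:20449265-21589533, plus strand) and Cdh18 (chr15:22549022-23474418, plus strand), 959 kb apart, gave the clearest opposite differences between FFPE and frozen wells. Pcdh15 (chr10:73099342-74649737, plus strand), at 1550 kb the longest member, and Pcdh9 (chr14:93013410-93890679, minus strand) differed most clearly between droplet classes.

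The 250 bases before the annotated starts are shown for 2 chromosome 15 cadherins, Cdh6 (called lower in FFPE in SMART-Seq2 wells) and Cdh10 (called lower in SCRB-seq wells only), and for the 2 protocadherins with the clearest droplet classes. The windows of Cdh12 and Cdh18 overlap annotated exons and are not shown. Sequences are from the RefSeq promoter table (build GRCm38.p6), 5′ to 3′ on the gene's strand (plus for Cdh10 and Pcdh15, minus for Cdh6 and Pcdh9), with capitals at matches, on either strand, to the TATA box (TATAAA), the CCAAT box (CCAAT) or the GC box (GGGCGG). The Cdh6 window was chr15:13173676-13173925, the Cdh10 window chr15:18820079-18820328, the Pcdh15 window chr10:73821617-73821866 and the Pcdh9 window chr14:93890680-93890929. The Cdh10 and Pcdh15 windows fall inside the longer GENCODE models of the same genes, so each is 1 of several possible starts.
Cdh6: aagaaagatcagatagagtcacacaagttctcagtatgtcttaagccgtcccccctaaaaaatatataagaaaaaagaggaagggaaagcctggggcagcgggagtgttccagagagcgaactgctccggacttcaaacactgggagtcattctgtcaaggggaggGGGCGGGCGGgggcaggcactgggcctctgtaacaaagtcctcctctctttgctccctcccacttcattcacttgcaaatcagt
Cdh10: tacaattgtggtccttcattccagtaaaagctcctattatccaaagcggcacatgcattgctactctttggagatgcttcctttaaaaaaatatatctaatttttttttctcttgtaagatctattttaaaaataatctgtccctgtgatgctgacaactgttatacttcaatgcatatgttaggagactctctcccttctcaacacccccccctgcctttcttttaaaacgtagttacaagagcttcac
Pcdh15: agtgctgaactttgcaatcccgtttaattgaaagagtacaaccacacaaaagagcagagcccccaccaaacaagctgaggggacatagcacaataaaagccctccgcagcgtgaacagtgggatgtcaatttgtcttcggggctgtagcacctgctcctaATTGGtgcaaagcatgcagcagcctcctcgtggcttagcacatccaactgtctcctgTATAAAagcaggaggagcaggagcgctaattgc
Pcdh9: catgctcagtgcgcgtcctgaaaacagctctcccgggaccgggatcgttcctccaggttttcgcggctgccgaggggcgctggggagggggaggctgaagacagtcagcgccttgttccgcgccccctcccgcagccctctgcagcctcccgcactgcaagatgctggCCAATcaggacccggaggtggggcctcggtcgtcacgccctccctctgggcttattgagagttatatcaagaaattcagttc
Cdh6 held 2 overlapping GC boxes, Pcdh15 a TATA box on its own strand and a CCAAT box on the other, Pcdh9 a CCAAT box, and Cdh10 none of these motifs. Among 32851 promoter windows of the same length, 12.4% held a TATA box, 33.8% a CCAAT box and 32.7% a GC box. Of the 21 members in the table, 2 held the first, 14 the second and 8 the last. The matches are a description of these letters, not of bound factors.

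**Figure D1:**
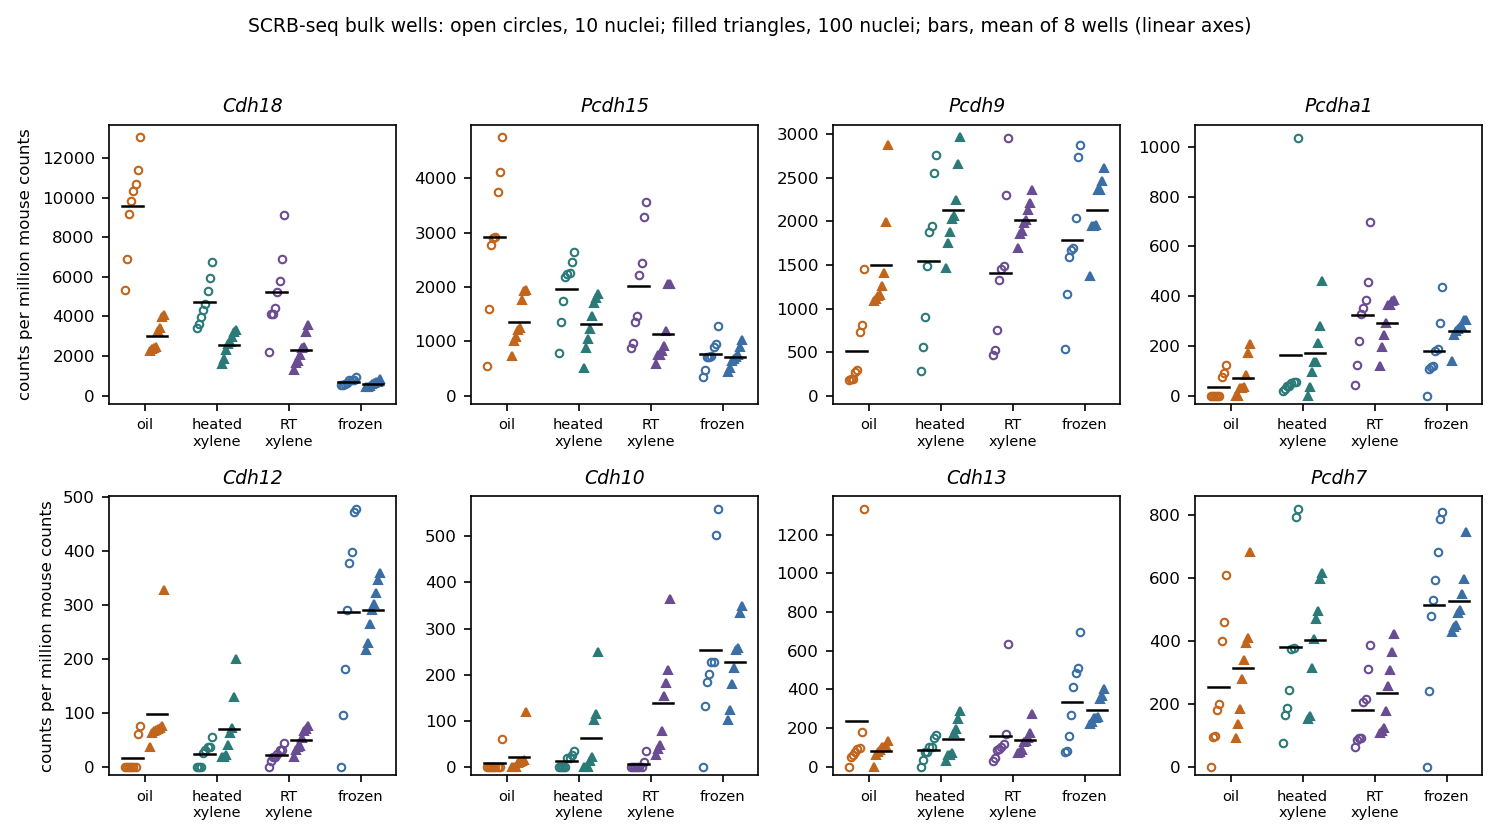
CPM of 8 members in each SCRB-seq well by group on linear axes, with open circles for wells of 10 nuclei, filled triangles for wells of 100 and a bar at the mean of 8 wells. Every FFPE well lay above the highest frozen well for Cdh18, whereas Cdh12 and Cdh10 were lower in most FFPE wells than in frozen wells.

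In bulk SCRB-seq wells, Cdh18 and Pcdh15 were higher and Cdh12, Cdh10, Cdh13 and Pcdh7 lower in FFPE than in frozen nuclei (levels are counts scaled to CPM, counts per 1000000 mouse counts, and are not corrected for gene length). Only 9 of the 35 members had enough counts to be tested. Of these, 2 were called higher and 4 lower at an adjusted p under 0.05 (edgeR's quasi-likelihood test on all wells, Benjamini-Hochberg adjustment over 1478 genes). Over all genes tested, 30.2% were called higher and 27.7% lower, so the members' 2 of 9 and 4 of 9 stood beside a background in which most genes were called. The median log2 difference was -0.66 over the 9 members and 0.00 over all genes. Wells were taken from 1 deposited sample and no animal was named for them, so p-values measure the spread between wells, which may be technical, and in bulk wells fewer cells of a type and less RNA per cell cannot be told apart.

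Among type II cadherins, which neurons use in selective adhesion, Cdh18 gave the largest rise. Its level ran from 1316 CPM to 13036 CPM over 48 FFPE wells (median 3588, mean 4578 ± 2886 SD) and from 428 to 948 CPM over 16 frozen wells (median 639, mean 651 ± 150 SD). All 48 FFPE wells lay above the highest frozen well. The log2 difference was 2.79 (SE 0.27, adjusted p = 1.22e-14, edgeR). The level differed by the number of nuclei: in FFPE wells it averaged 6528 CPM in wells of 10 and 2628 CPM in wells of 100, against 699.995 and 602 CPM in frozen wells of 10 and 100.

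Cdh12, its neighbour on chromosome 15, went the other way. Over FFPE wells it ran from 0 to 329 CPM (median 36.9, mean 46.6 ± 55.9 SD, n = 48) and over frozen wells from 0 to 478 CPM (median 297, mean 289.5 ± 126.7 SD, n = 16). The groups overlapped, but 47 of 48 FFPE wells lay below the frozen mean. Cdh12 was lower in FFPE by a log2 difference of -2.52 (SE 0.30, adjusted p = 3.21e-11, edgeR).

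Cdh10, the third chromosome 15 cadherin with enough counts, ran from 0 to 363 CPM in FFPE wells (median 9.77, mean 41.1 ± 76.0 SD) and from 0 to 559 CPM in frozen wells (median 220.2, mean 241 ± 142 SD). A count was present in 25 of 48 FFPE wells and in 15 of 16 frozen wells. The log2 difference was -2.69 (SE 0.42, adjusted p = 9.28e-08, edgeR). Cdh8, a type II cadherin on chromosome 8, was not called: it measured 158 ± 352 CPM in FFPE and 180.4 ± 91.7 CPM in frozen wells (log2 difference -0.66, adjusted p = 0.144, edgeR).

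Cdh13, the cadherin that is held to the membrane by a lipid anchor and has no cytoplasmic tail, ran from 0 to 1331 CPM in FFPE wells (median 94.2, mean 141 ± 202 SD) and from 79.3 to 696 CPM in frozen wells (median 263, mean 315 ± 163 SD). It was below the lowest frozen well in 19 of 48 FFPE wells and below the frozen mean in 46. It fell by 1.29 on the log2 scale (SE 0.30, adjusted p = 0.000154, edgeR).

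Protocadherins went in both directions. Pcdh15, which is a component of the tip link of hair cells and is also a common marker of oligodendrocyte precursors, ran from 515 to 4759 CPM in FFPE wells (median 1655, mean 1785 ± 991 SD) and from 341 to 1278 CPM in frozen wells (median 709, mean 733 ± 238 SD). It rose by a log2 difference of 1.30 (SE 0.26, adjusted p = 1.16e-05, edgeR), with 29 of 48 FFPE wells above the highest frozen well. Pcdh7, a delta-1 protocadherin, ran from 0 to 818 CPM (median 249.96, mean 294 ± 198 SD) in FFPE and from 0 to 809 CPM (median 513, mean 520 ± 203 SD) in frozen wells. It fell by 0.89 on the log2 scale (SE 0.25, adjusted p = 0.00202, edgeR), and 42 of 48 FFPE wells were below the frozen mean.

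The remaining delta-1 member with enough counts, Pcdh9, was not called: it measured 1520 ± 804 CPM in FFPE and 1958 ± 617 CPM in frozen wells (log2 difference -0.44, SE 0.22, adjusted p = 0.0786, edgeR). Pcdha1 was not called either, at 177 ± 205 and 219 ± 106 CPM (log2 difference -0.64, adjusted p = 0.107, edgeR). Both calls and that of Cdh8 turned on the scaling. With DESeq2's size factors in edgeR the median over all genes moved to -0.58. All 3 were then called lower, making 2 higher and 7 lower of 9. The share of all genes called under that scaling is not given, so these counts are no result about members. Pcdh9 was also called lower with the number of nuclei as a covariate. Cdh18 and Pcdh15 were higher and Cdh12, Cdh10, Cdh13 and Pcdh7 lower under both scalings.

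Taken as a sum, member transcripts made up 0.960 ± 0.294% of mouse counts in FFPE wells (0.528 to 1.85%, n = 48) and 0.609 ± 0.110% in frozen wells (0.346 to 0.787%, n = 16). Without Cdh18, a check chosen after seeing the data, the direction turned, at 0.502 ± 0.103% in FFPE and 0.544 ± 0.107% in frozen wells. The highest sums were in oil wells of 10 nuclei, at 1.42%, against 0.756% in oil wells of 100 nuclei. The other 25 members in the table averaged at most 131 CPM in FFPE and 163 CPM in frozen wells and were not tested. Cdh2 (N-cadherin, the main classical cadherin of neural tissue) measured 68.3 ± 103 and 132 ± 98.8 CPM, Cdh1 (E-cadherin, of epithelia) 18.6 ± 20.7 and 14.8 ± 26.9 CPM, and Cdh5 (VE-cadherin, of endothelium) had 7 and 1 counts in all. Cdh6, the first of the chromosome 15 row, had 32 counts over 48 FFPE wells and 116 over 16 frozen wells (9.54 ± 13.5 and 104 ± 66.9 CPM).

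Partners of cadherins were read from a list of 31 catenins and junction genes. Of the 11 that could be tested, 2 were called higher and 3 lower. Ctnna3 (αT-catenin), an actin-linking catenin, measured 598 ± 385 CPM in FFPE and 219 ± 89.0 CPM in frozen wells (log2 difference 1.42, adjusted p = 8.74e-06, edgeR). Ctnna2 (αN-catenin), its neuronal relative, measured 682 ± 413 and 1205 ± 450 CPM (log2 difference -0.83, adjusted p = 0.00351, edgeR). Fat2, a giant atypical cadherin that is also on the granule neuron list, had 545 counts in the FFPE wells and 2 in the frozen wells. The granule list was called higher for 8 of 8 genes tested and the cortical projection list lower for 3 of 3, in the same wells as the member differences. Also called higher were 3 of 3 inhibitory neuron, 3 of 4 astrocyte, 2 of 3 oligodendrocyte, 1 of 1 oligodendrocyte precursor and 1 of 1 endothelial markers tested, and 1 of 1 striatal markers was called lower. Their part in the members' differences was not tested.

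The 3 clearing methods were compared among FFPE wells only, where 5 members could be tested (Cdh18, Pcdh15, Pcdh7, Pcdh9 and Pcdha1). Between heated oil and room-temperature xylene 1 was called, Pcdha1, beside 10.3% of all 1080 genes. Between oil and heated xylene, 0 of 5 were called beside 8.52% of genes, and between the xylene treatments 0 of 5 beside 1.94%. At an unadjusted p under 0.05 those last comparisons held 3 and 2 members, and DESeq2 called 0 in both.

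Pcdha1, of the locus whose isoforms single neurons choose at random, ran from 0 to 207 CPM in the 16 oil wells (median 30.2, mean 53.0 ± 66.6 SD, a count in 9 wells). It ran from 43.4 to 698 CPM in the 16 room-temperature xylene wells (median 340.5, mean 309.5 ± 155.9 SD, a count in all 16) and from 0 to 1036 CPM in heated xylene wells (median 56.2, mean 167 ± 261 SD). The log2 difference of oil from room-temperature xylene was -2.39 (SE 0.53, adjusted p = 0.00192, edgeR). In FFPE wells of 10 nuclei alone Pcdha1 had too few counts to be tested. There Pcdh9 was the 1 member called between oil and room-temperature xylene, lower in oil. Against heated xylene, Pcdh9 was called lower and Cdh18 higher in oil. The oil wells of 10 nuclei held 7512 to 20593 counts, the fewest of any group.

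Pcdh9 measured 1010 ± 736 CPM in oil wells, 1838 ± 766 CPM with heated xylene and 1712 ± 688 CPM with room-temperature xylene (adjusted p = 0.0618 and 0.0816 for oil against each, edgeR). Cdh18 measured 6306 ± 3822, 3653 ± 1446 and 3777 ± 2150 CPM in the same order (adjusted p = 0.15 for oil against heated xylene, edgeR). With the number of nuclei as a covariate, Cdh18 was called higher and Pcdh9 lower in oil against either xylene. Markers moved with these values: oligodendrocyte markers made up 0.0474 ± 0.0556% of counts in oil wells (0 to 0.191%), 0.264 ± 0.128% in heated xylene wells (0.117 to 0.578%) and 0.295 ± 0.353% in room-temperature xylene wells (0.04998 to 1.54%). Inhibitory neuron markers made up 0.0479 ± 0.0413% in oil wells (0 to 0.147%), 0.134 ± 0.0464% in heated xylene wells (0.0654 to 0.223%) and 0.127 ± 0.0461% in room-temperature xylene wells (0.0529 to 0.203%). Of each list 2 of 3 genes tested were called lower in oil against either xylene, and 2 of 8 granule markers were called higher in oil against room-temperature xylene. Their part in the result was not tested. Each method and number of nuclei was sequenced as 1 pool, so pool and method cannot be told apart.

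**Figure D2:**
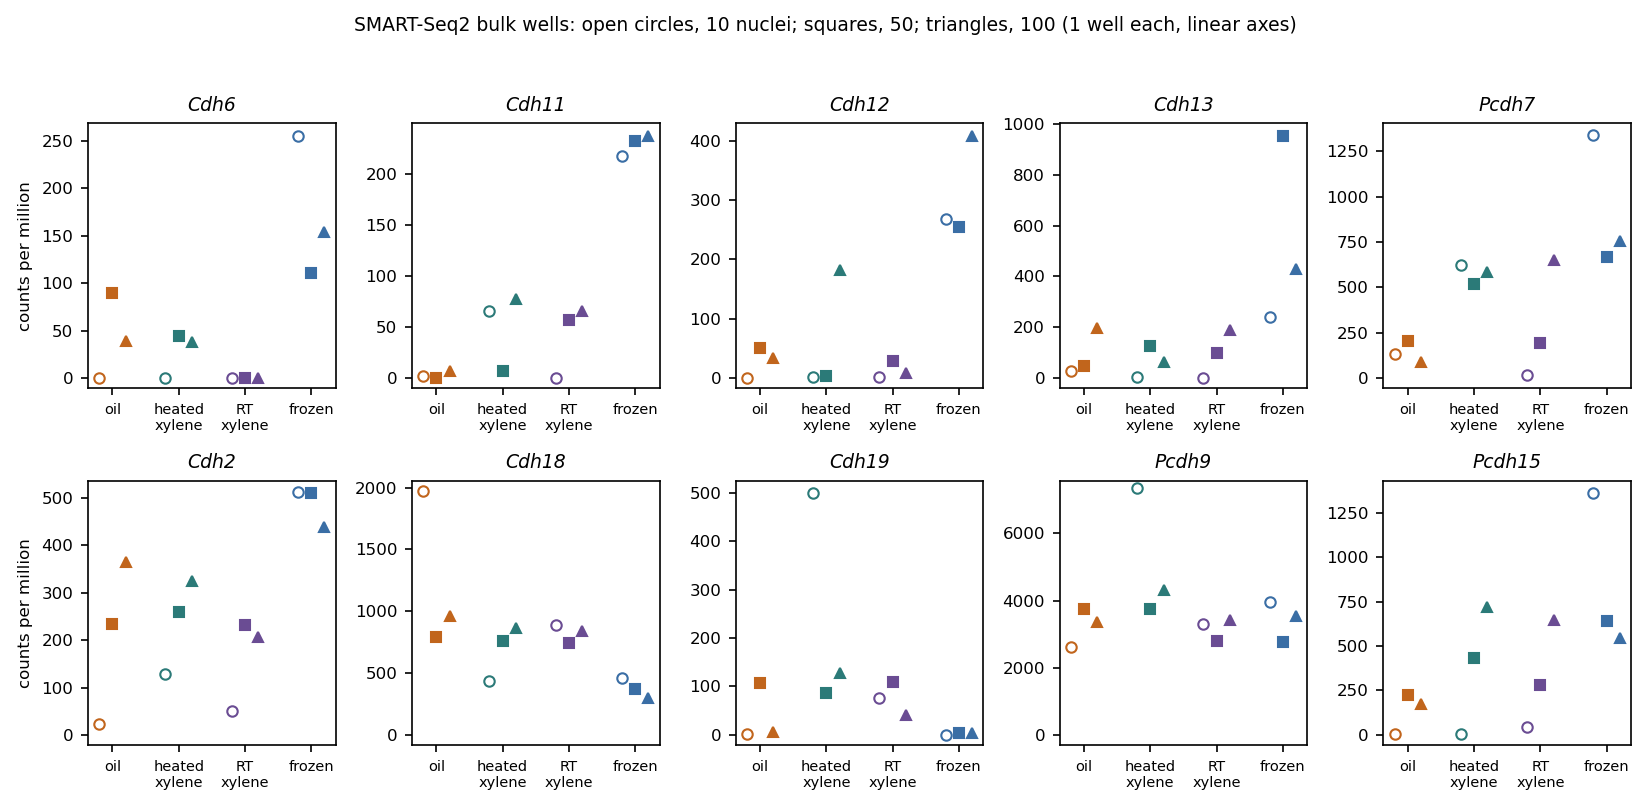
CPM of 10 members in each of the 12 SMART-Seq2 wells, by group, with symbols for the number of nuclei. For Cdh6, Cdh11, Cdh12 and Cdh13 all 3 frozen wells lay above the 9 FFPE wells, and for Cdh18 8 of 9 FFPE wells lay above the frozen wells.

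The SMART-Seq2 wells repeated the comparison with another chemistry, and 24 members could be tested. Here 5 were called lower in FFPE and 0 higher (Cdh18 and Cdh19 were higher at an unadjusted p under 0.05, and DESeq2 called Cdh19). The test was edgeR's quasi-likelihood test on 9 FFPE and 3 frozen wells over 9092 genes. The counts stand beside 2.64% of all genes called lower and 1.45% higher. The median log2 difference was -0.34 over the 24 members and -0.13 over all genes. In the same wells 7 of 8 granule, 2 of 5 inhibitory neuron, 2 of 8 oligodendrocyte and 1 of 6 astrocyte markers tested were called higher and 3 of 7 cortical projection markers lower. Cortical projection markers made up 0.0354% of counts in FFPE wells (0.0187 to 0.0577%) and 0.152% in frozen wells (0.0988 to 0.189%), and inhibitory neuron markers 0.194% (0.0609 to 0.331%) and 0.0305% (0.00752 to 0.0533%). Their part in the members' differences was not tested. Cdh12, Cdh13 and Pcdh7 were called lower by both chemistries. Cdh6 and Cdh11 had been below the count needed for testing in the SCRB-seq wells.

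Cdh11, a type II cadherin also known from mesenchymal cells, measured 238, 233 and 218 CPM in the frozen wells of 100, 50 and 10 nuclei. In the same order it measured 77.8, 6.38 and 65.8 CPM after heated xylene, 65.2, 56.4 and 0 CPM after room-temperature xylene and 6.73, 0 and 1.95 CPM after oil. All FFPE wells lay below the frozen wells, and all 3 oil wells were under 10 CPM. It fell by 3.86 on the log2 scale (SE 0.88, adjusted p = 0.0102, edgeR).

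Cdh6, of kidney and early neural tissue, measured 154, 111 and 256 CPM in the frozen wells. After heated xylene it measured 37.5, 44.6 and 0 CPM, after room-temperature xylene 0 CPM in all 3 wells, and after oil 39.0, 89.9 and 0 CPM. Groups did not overlap, and 5 of 9 FFPE wells had no count. The fitted log2 difference was -5.08 (SE 1.15, adjusted p = 0.0114, edgeR).

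Cdh12 measured 409, 255 and 268 CPM in the frozen wells. The FFPE wells gave 181, 3.83 and 1.06 CPM (heated xylene), 8.15, 28.2 and 2.03 CPM (room-temperature xylene) and 33.7, 49.7 and 0 CPM (oil). It was lower in all 9, by a log2 difference of -3.78 (SE 0.95, adjusted p = 0.0207, edgeR). The heated xylene well of 100 nuclei stood nearest to the frozen wells.

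Cdh13 measured 429, 954 and 238 CPM in the frozen wells. After heated xylene it was 60.5, 125 and 3.18 CPM, after room-temperature xylene 188, 98.8 and 0 CPM and after oil 198, 47.3 and 25.4 CPM. No FFPE well reached the lowest frozen well. The log2 difference was -2.96 (SE 0.80, adjusted p = 0.0344, edgeR).

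Pcdh7 measured 752, 666 and 1336 CPM in the frozen wells. It was 585, 517 and 621 CPM after heated xylene, 650.2, 192 and 14.2 CPM after room-temperature xylene and 88.8, 201 and 129 CPM after oil. The room-temperature xylene wells held both the highest and the lowest FFPE value, and all FFPE wells lay below the frozen wells. Over all FFPE wells the log2 difference was -1.98 (SE 0.54, adjusted p = 0.0352, edgeR).

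These 5 calls rested on few frozen wells. Without the frozen well of 100 or of 50 nuclei only Cdh6 was called (adjusted p = 0.0441 and 0.0290, edgeR), and without the frozen well of 10 nuclei none was (adjusted p 0.0557 for Cdh13 to 0.431 for Pcdh7). Without the heated xylene well of 100 nuclei 3 were called, with Cdh13 and Pcdh7 lost. Pcdh7 was also lost without the oil well of 100 or 10 nuclei or the well of 50 of either xylene treatment, and Cdh13 without the oil well of 50. Every one of the 5 was lower in FFPE under all these settings.

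Members that moved in the SCRB-seq wells but were not called here were Cdh18, Pcdh15 and Cdh10. Cdh18 measured 302, 374 and 460 CPM in the frozen wells, against 866, 760 and 439 CPM after heated xylene, 844, 741 and 887 CPM after room-temperature xylene and 961, 795 and 1974 CPM after oil. Its direction was that of the SCRB-seq wells (log2 difference 0.99, SE 0.39, adjusted p = 0.195, edgeR). Pcdh15 had the opposite sign in the 2 chemistries: 544, 644 and 1365 CPM in frozen wells stood against 3.90 to 719 CPM over the FFPE wells, whose wells of 10 nuclei gave 4.24, 46.7 and 3.90 CPM (log2 difference -2.06, SE 0.77, adjusted p = 0.165, edgeR). The difference between chemistries was not tested. With the number of nuclei as a covariate, Pcdh15 and Cdh2 joined the members called lower. Cdh10 measured 210.003, 263 and 181 CPM in frozen wells and 85.2 to 558 CPM in FFPE wells (log2 difference -0.38, adjusted p = 0.820, edgeR).

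Cdh19, a type II cadherin of Schwann cells and other glia, had 4.29, 3.70 and 0 CPM in the frozen wells. It had 127, 85.5 and 501 CPM after heated xylene, 40.8, 109 and 75.1 CPM after room-temperature xylene and 5.38, 106 and 1.95 CPM after oil. The log2 difference of 4.91 missed the threshold (SE 1.43, adjusted p = 0.0534, edgeR) and passed it with DESeq2's Wald test, and also in edgeR without the oil well of 100 or 10 nuclei or the room-temperature xylene well of 10. Oligodendrocyte markers made up 0.194% of counts in the FFPE wells (0.0745 to 0.291%) and 0.0210% in the frozen wells (0.00774 to 0.0366%). Their part in the result was not tested.

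Cdh2 measured 439, 510 and 513 CPM in the frozen wells and 23.4 to 366 CPM in the FFPE wells, all below the frozen wells (log2 difference -1.57, adjusted p = 0.127, edgeR). Pcdh9, the member with the most counts in this table, showed no called difference: 3531, 2752 and 3961 CPM in frozen wells and 2618 to 7337 CPM in FFPE wells (log2 difference -0.12, adjusted p = 0.893, edgeR). Cdh8 measured 137 to 357 CPM in frozen and 179 to 504 CPM in FFPE wells. Pcdha1 measured 236 to 311 CPM in frozen and 183 to 359 CPM in FFPE wells (adjusted p = 0.865, edgeR). The sum of members was 0.866 ± 0.120% of counts in frozen wells (n = 3) and 0.772 ± 0.177% in FFPE wells (n = 9). Cdh1 had a count in 1 well and Cdh5 in 2 wells, and 4 members had none in any well. Of 27 partner genes tested, Fat2 alone was called (0.374 CPM in frozen and 517 ± 355 CPM in FFPE wells).

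Between the clearing methods 0 of 23 members were called in this table in any of the 3 comparisons. The background was 0% of 8372 genes for oil against heated xylene, 0% for heated against room-temperature xylene and 0% for oil against room-temperature xylene. At an unadjusted p under 0.05 the 3 comparisons held 314, 199 and 379 genes, and DESeq2's Wald test called 20, 1 and 26 genes, no member among them. Pcdha1, called in SCRB-seq wells, measured 186, 255 and 336 CPM in oil and 243, 187 and 357 CPM in room-temperature xylene wells of 100, 50 and 10 nuclei (log2 difference 0.06, SE 0.67, adjusted p = 0.9997, edgeR). Members with an unadjusted p under 0.05 numbered 4, 2 and 1.

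**Figure D3:**
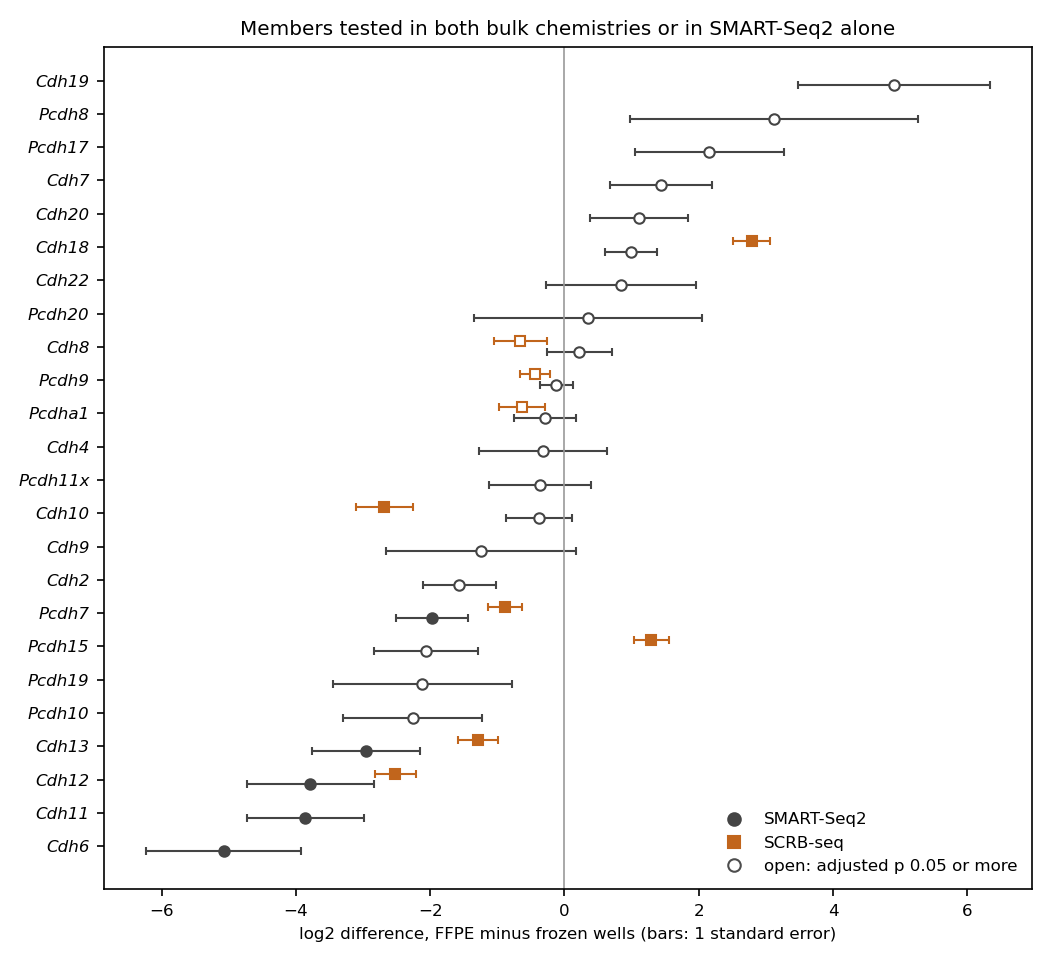
Log2 difference of FFPE from frozen wells with its standard error for each member tested, in SCRB-seq and in SMART-Seq2 wells; filled points passed an adjusted p of 0.05. Cdh12, Cdh13 and Pcdh7 were called lower in both, and Pcdh15 lay on opposite sides of 0.

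Single nuclei on plates gave 14 members with at least 100 CPM in 1 or both arms. At least 1 count was present for 34 members in FFPE and 35 in frozen nuclei, among them Cdh1 (2.03 and 1.42 CPM) and Cdh5 (13.4 and 19.7 CPM). With 1 sample an arm there was no test, and the Poisson intervals given cover counting error only. Summed over nuclei, 7 members were at least 2-fold higher in FFPE and 6 at least 2-fold lower, beside 26.6% and 33.2% of 3396 genes at that level. With the same 14 members kept, a check chosen after seeing the data, 1 (Pcdh15) was at least 2-fold higher and 5 lower by the mean over nuclei. With batch 2 nuclei alone these were 2 and 7, and without each gene's top nucleus 2 and 6, the higher members being Cdh18 and Pcdh11x in both. Over 4 ways of summing (all nuclei, the mean of per-nucleus CPM, batch 2 nuclei alone, and without the top nucleus of each gene), 6 members were lower throughout, 5 higher throughout and 3 in no fixed direction. The share of all genes is given for the sum over all nuclei only, so the other counts are no result about members.

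The members lower in FFPE nuclei included 3 already seen in wells. Cdh6 measured 20.5 CPM in FFPE (95% interval 18.7 to 22.4) and 204 CPM in frozen nuclei (201 to 208), a log2 ratio of -3.32 (-3.91 to -2.81 over the 4 ways). Cdh13 measured 192 CPM (186 to 198) and 563 CPM (557 to 569), a log2 ratio of -1.55. Both FFPE plates were below both frozen plates for each: Cdh6 at 5.58 and 25.03 against 203 and 205 CPM, and Cdh13 at 151 and 205 against 412 and 706 CPM. Pcdh7 measured 150 CPM against 316 CPM (log2 ratio -1.08), with plates at 62.3 and 176 against 244 and 384 CPM.

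Pcdha1 (129.6 against 358 CPM), Cdh4 (R-cadherin, of retina and brain, 38.5 against 150 CPM) and Cdh20 (89.9 against 205 CPM) completed the lower group, although by the mean over nuclei Cdh20 measured 107 against 112 CPM. Thinned to 10000 counts a nucleus, which kept 135 FFPE and 127 frozen nuclei, Pcdha1 was detected in 23.0% of FFPE and 57.5% of frozen nuclei and Cdh4 in 9.63% and 35.4%. Cdh13 was detected in 25.9% and 60.6% and Pcdh7 in 27.4% and 60.6%, so their lower sums went with detection in fewer nuclei. Before thinning, Cdh13 was detected in 41.3% of FFPE and 81.0% of frozen nuclei.

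Higher in FFPE nuclei under all 4 ways were Cdh18, Pcdh11x, Pcdh9, Cdh2 (188 against 78.2 CPM) and Pcdh15. Cdh18 measured 352 CPM (344 to 359) against 108 CPM (105 to 110), a log2 ratio of 1.71 (0.64 to 1.71 over the 4 ways). Its plates stood at 114 and 425 against 105 and 110 CPM, so 1 FFPE plate was near the frozen level. Pcdh11x, an X-linked delta-1 protocadherin, measured 105 against 28.3 CPM (log2 ratio 1.89, 0.84 to 1.89). Pcdh15 measured 413 CPM (405 to 421) against 193 CPM (190 to 197), yet after thinning it was detected in 32.6% of FFPE and 49.6% of frozen nuclei (56.6% and 80.3% before), so sum and detection went in opposite directions and no order is read from it. In thinned nuclei Cdh2 was detected in 28.1% of FFPE (20.8 to 36.5%) and 32.3% of frozen nuclei (24.3 to 41.2%), and Cdh18 in 42.2% (33.8 to 51.0%) and 33.9% (25.7 to 42.8%). These differences were not tested.

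Single nuclei dominated some sums. Pcdh9 measured 1752 against 693 CPM, a log2 ratio of 1.34, but 47.8% of its FFPE counts lay in 1 nucleus, and with batch 2 nuclei alone the ratio was 0.05. It was detected in 82.2% of FFPE and 68.5% of frozen thinned nuclei. Cdh10 measured 285 against 116 CPM, with 80.0% of its FFPE counts in 1 nucleus, and its log2 ratio went from 1.29 to -0.66 without the top nucleus and to -1.70 with batch 2 nuclei alone. Cdh12, lower in FFPE in both kinds of well, measured 139 against 66.8 CPM by sum (log2 ratio 1.05) and -0.73 by the mean over nuclei, with detection in 11.1% and 24.4% of thinned nuclei. Cdh8 was near equal at 103 and 91.1 CPM. The granule marker Gabra6 measured 95.3 CPM in FFPE and 0.0315 CPM in frozen nuclei. Summed over lists, granule markers measured 2391 CPM in FFPE (2276 and 2766 on its plates) and 363 CPM in frozen nuclei (305 and 418), and 9 of 9 were higher in FFPE. Cortical projection markers measured 388 CPM (261 and 803) and 1055 CPM (873 and 1246), with 9 of 10 lower, and inhibitory neuron markers 1610 CPM (889 and 1832) and 2364 CPM (2202 and 2533), with 8 of 10 lower. Choroid plexus and ependyma markers measured 1436 CPM (881 and 3240) and 180.4 CPM (179.6 and 181), with 3 of 4 higher. The part of these lists in the members' values was not tested.

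**Figure D4:**
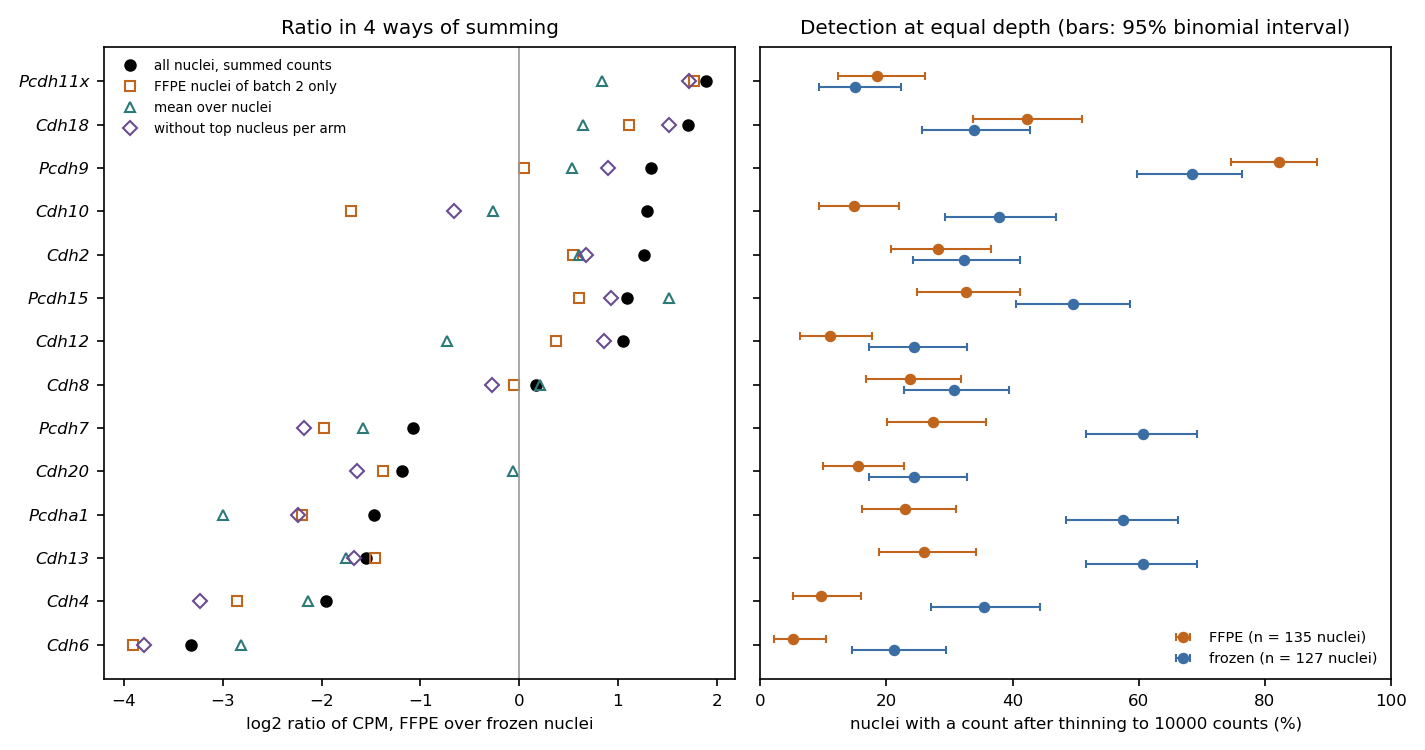
Left, the log2 ratio of FFPE to frozen CPM for 14 members in 4 ways of summing over plate nuclei; right, the percent of nuclei with a count after thinning to 10000 counts, with 95% binomial intervals. Cdh6, Cdh4, Cdh13 and Pcdha1 lie below 0 in every way of summing and in fewer FFPE than frozen nuclei, whereas the 4 points of Cdh10 fall on both sides of 0.

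The FFPE batches also differed from each other. Of 13 members with at least 100 CPM in batch 1 or batch 2, 9 were at least 2-fold higher in batch 1 and 0 at least 2-fold lower, beside 25.9% and 40.9% of 3258 genes. Pcdh9 measured 2817 and 716 CPM, Cdh4 209 and 20.6 CPM, Cdh10 175 and 35.8 CPM, Cdh20 353 and 78.9 CPM, and Cdh18 542 and 233 CPM. These 5 were higher in batch 1 in all 3 ways of summing. Cdh13 measured 188 and 205 CPM by sum but 200.3 and 125 CPM by the mean over nuclei, so its direction turned. Pcdh15 measured 488 and 294 CPM and Cdh2 194 and 114 CPM, and the direction of Pcdh15 turned with the mean over nuclei (log2 ratio -0.49). Cdh8 (203 and 87.8 CPM), Pcdh7 (220.2 and 80.4 CPM), Pcdha1 (199.8 and 77.7 CPM) and Pcdh11x (149 and 96.2 CPM) were higher in batch 1 by each way. Cdh23, the partner of Pcdh15 in the hair cell tip link, measured 638 and 30.6 CPM, but 99.6% of its batch 1 counts came from 1 nucleus, and without the top nuclei it measured 2.62 and 12.5 CPM.

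**Figure D5:**
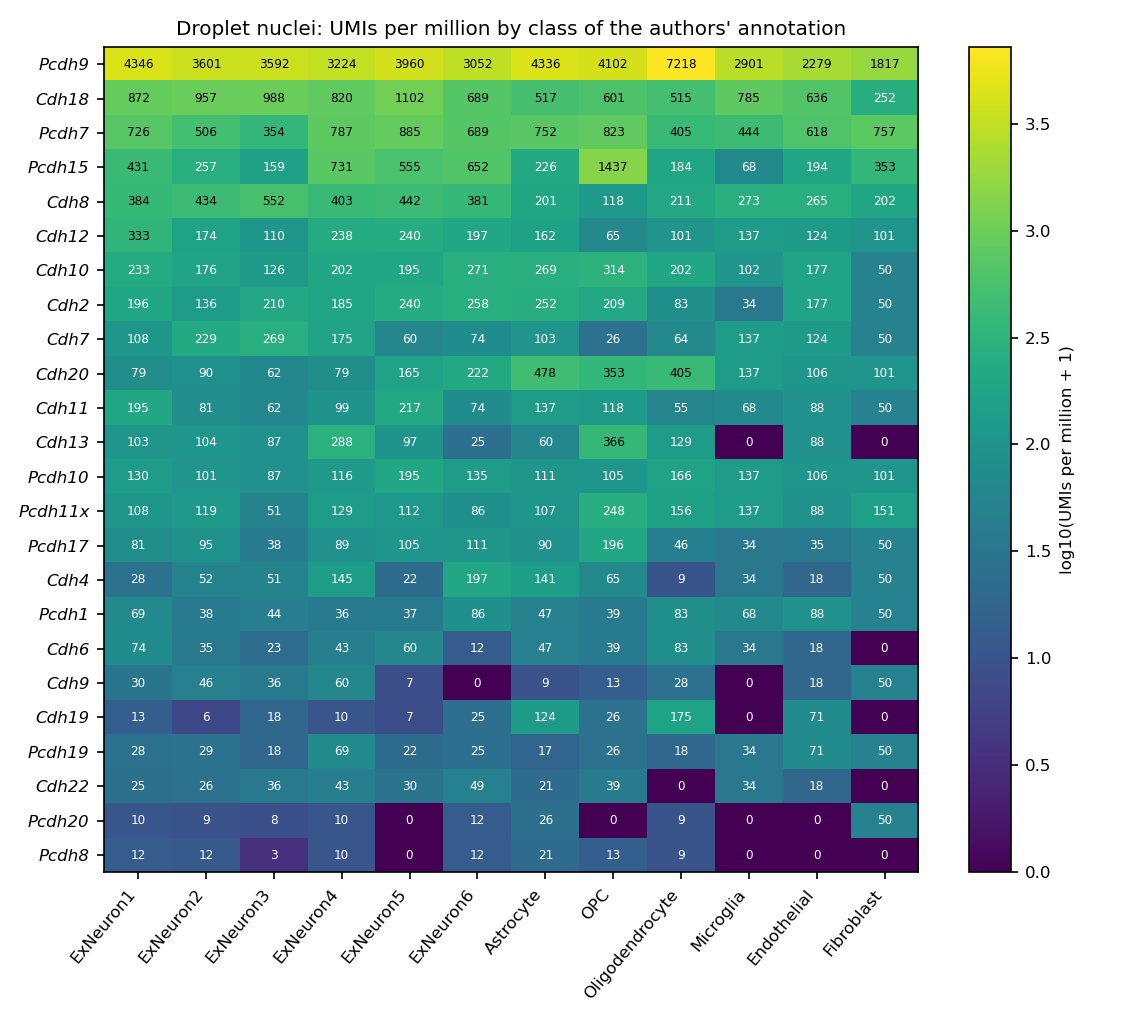
Heat map of the level of 24 members (rows) in the 12 droplet classes of the authors' annotation (columns), with UMIs per 1000000 printed in each cell and colour on a log10 scale. Pcdh9 is highest in Oligodendrocyte (7218 CPM) and Pcdh15 in OPC (1437 CPM).

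In droplets, 32 members were listed (Cdh16, Cdh17 and Pcdh12 were not) and together made up 20929 UMIs, 0.803% of all. The classes were clustered on the same nuclei, so the levels are a description with no test, and intervals cover counting error only. Fibroblast, with the fewest nuclei, was left out when classes were ranked for each member. Members took 1.04% of UMIs in the class named Oligodendrocyte, 0.935% in OPC and 0.877% in ExNeuron5, and least, 0.444%, in Fibroblast (47 nuclei). These shares rest largely on Pcdh9, which alone gave 10357 of the 20929 UMIs. It measured 7218 CPM in Oligodendrocyte and 4346 CPM in the next class, so the order is not one of the members at large. Oligodendrocyte and OPC each led all classes in the marker list of the same name.

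Of 10 protocadherins ranked, Pcdh9 and Pcdh15 had the clearest classes, both glial. Pcdh9 gave 10357 UMIs, the most of any member as a plain count. It measured 7218 CPM in Oligodendrocyte (6722 to 7741), next 4346 CPM in ExNeuron1 and 4336 CPM in Astrocyte, and least in Fibroblast at 1817 CPM. At least 1 UMI was seen in 83.6% of Oligodendrocyte nuclei and in 47.7% of Endothelial nuclei, at median depths of 314 and 301.5 UMIs. Pcdh15 measured 1437 CPM in OPC (1181 to 1732), next 731 CPM in ExNeuron4, and 68.3 CPM in Microglia. It had a UMI in 32.6% of OPC and 2.15% of Microglia nuclei, at median depths of 340 and 285 UMIs. Of the 24 members with at least 20 UMIs, these were the 2 whose interval in the highest class lay above that of the next. Such intervals narrow with counts, and these 2 had 10357 and 1059 UMIs. The share over all genes is not given, so counts of separate intervals are no result about members.

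Other members were highest in a glial class with an interval that overlapped the next class. Cdh20 measured 478 CPM in Astrocyte (394 to 576), 405 CPM in Oligodendrocyte and 353 CPM in OPC, but 61.6 CPM in ExNeuron3, its lowest. Cdh19, with 80 UMIs, measured 175 CPM in Oligodendrocyte (105 to 273) and 124 CPM in Astrocyte. Cdh6 measured 82.8 CPM in Oligodendrocyte and 73.7 CPM in ExNeuron1, but in nuclei with at least 300 genes it was highest in Microglia (123 CPM, 1 UMI). The highest class named here also changed in those nuclei for Cdh2, Cdh9, Pcdh1, Pcdh8, Pcdh10, Pcdh17 and Pcdh19, those of Pcdh10 and Pcdh19 to Microglia on 2 and 1 UMIs. Cdh13 was highest in OPC at 366 CPM, followed by ExNeuron4 at 288 CPM, the class led by inhibitory neuron markers. OPC was also the highest class of Cdh10 (314 CPM), Pcdh11x (248 CPM) and Pcdh17 (196 CPM), each with an interval that overlapped the next class. The sparse Pcdh20 and Pcdh8, with 26 UMIs each, were highest in Astrocyte, at 25.6 and 21.4 CPM.

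Of 11 type II cadherins ranked, 7 were highest in a neuron class, where 6 of the 11 classes ranked were neuron classes, and 0 had an interval above the next class. Cdh18, with 2176 UMIs, measured 1102 CPM in ExNeuron5 and 988 CPM in ExNeuron3, and no class was below 252 CPM. Cdh12 was highest in ExNeuron1 at 333 CPM (295 to 375), the class led by cortical projection markers, and measured 65.3 CPM in OPC. Cdh8 was highest in ExNeuron3 at 552 CPM and Cdh7 in ExNeuron3 at 269 CPM and ExNeuron2 at 229 CPM. The granule neuron list was highest in ExNeuron3 (3697 CPM in sum) and next in ExNeuron2 (2748 CPM). Cdh11 was highest in ExNeuron5 (217 CPM), Cdh9 in ExNeuron4 (59.5 CPM) and Cdh22 in ExNeuron6 (49.2 CPM).

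Of the classical and remaining members, Cdh2 was spread over classes, highest in ExNeuron6 at 258 CPM with Astrocyte at 252 CPM. Cdh4 was highest in ExNeuron6 at 197 CPM and ExNeuron4 at 145 CPM. Pcdh7 measured 885 CPM in ExNeuron5 and 823 CPM in OPC, and Pcdh10, an axon guidance protocadherin, 195 CPM in ExNeuron5. Pcdh1 and Pcdh19, an X-linked protocadherin mutated in a form of epilepsy, were highest in Endothelial at 88.3 and 70.7 CPM, each from few UMIs. Cdh5 had 0 UMIs in the 174 Endothelial nuclei, where 3 UMIs would make 53.0 CPM, and 10 UMIs elsewhere, although that class led in endothelial markers (2103 CPM, 6 of 6 genes present). The other 8 members listed had under 20 UMIs each. Among them Cdh1 had 4 UMIs, so its class could not be read. Pcdha1 had 3 UMIs in all classes, or 1.15 CPM (0.237 to 3.37), against 177 CPM in SCRB-seq FFPE wells and 129.6 CPM in FFPE plate nuclei. The reason was not tested.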

How the data were processed

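The deposited tables held raw gene counts of wells and nuclei (UMI counts for droplets), which the authors aligned to builds named mm10 and hg19 per the submitters' processing notes; the aligner, counter, strandedness and whether SCRB-seq was collapsed by UMI are not stated by any label or header. Droplet counts used a reference named mm10_premrna per the file headers. Groups and nuclei per well (a plain number) came from the authors' deposited annotation, as did the percent of human counts per nucleus, which was not analysed further. Human genes were left out.

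Wells were tested with edgeR 4.0.16 (R 4.3.3; TMM scaling, filterByExpr, quasi-likelihood test, Benjamini-Hochberg adjustment over all genes tested, threshold 0.05), after a check on simulated data. FFPE was the mean of the 3 methods minus frozen, all wells in 1 fit; methods were compared among FFPE wells only. DESeq2 1.42.0, no filter, nuclei number as covariate, wells of 1 size and each SMART-Seq2 well left out were alternatives. Nuclei had 1 sample an arm and were summed to CPM with exact 95% intervals, without a test or doublet removal. Figures used matplotlib 3.10.9. Intervals cover counting error only.

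Named were members called at the threshold, members with at least 100 CPM in plate nuclei or 20 UMIs in droplets, the 5 with the most counts in a table, and Cdh1, Cdh2, Cdh5, Cdh13, Pcdh9, Pcdh15 and Pcdha1; others were added after their values were seen. Members and gene lists were chosen with earlier results of these data known. The batch 3 plate table, which listed 0 nuclei, was not analysed here.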

Additional observations from a re-analysis of the deposited data

Results flagged for a closer look

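In SCRB-seq wells of 1 method and number of nuclei (8 wells), 1 well stood apart from the other 7 by more than Dixon's 95% limit in 12 of 72 groups tested over the 9 members. For normally distributed values that limit flags about 1 in 20 groups. These values are sparse counts, some of them 0 in most wells, so the 12 of 72 cannot be set against that rate. In 11 of the 12 the well was the highest. For Cdh10 these were 60.9 CPM in oil wells of 10 nuclei (1 count, with 0 in the other wells), 119.6 CPM in oil wells of 100 (next 15.1), 250 CPM in heated xylene wells of 100 (next 115) and 35.2 CPM in room-temperature xylene wells of 10 (2 counts, next 11.4). For Cdh12 the well was in oil with 100 nuclei, at 329 CPM (27 counts, next 75.3). Cdh13 reached 1331 CPM in an oil well of 10 nuclei (10 counts, next 183) and 634 CPM in a room-temperature xylene well of 10 (36 counts, next 169). Cdh8 reached 2350 CPM in an oil well of 10 nuclei (26 counts, next 146), 323 CPM in a heated xylene well of 100 (30 counts, next 51.4) and 299 CPM in a room-temperature xylene well of 10 (17 counts, next 86.9). Pcdha1 reached 1036 CPM in a heated xylene well of 10 nuclei (30 counts, next 56.4). The single low well was of Pcdha1 in frozen wells of 100 nuclei, at 137 CPM (next 245).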

How the results depend on the processing

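For single members tested between FFPE and frozen wells, and for Pcdh9, Cdh18 and (against room-temperature xylene) Pcdha1 between SCRB-seq oil and xylene wells, 410 alternative values kept direction and call, 23 gained a call, 20 lost one and 9 changed sign. The 9 were SMART-Seq2 log2 differences of FFPE from frozen wells that were called neither over all wells nor in that alternative. Cdh4 went from -0.32 to 0.20 without the frozen well of 10 nuclei and Cdh9 from -1.24 to 0.016 without the frozen well of 50. Pcdh20 went from 0.35 to -0.97 with nuclei number as a covariate, and to -0.055, -1.72 and -1.61 without the frozen well of 50, the room-temperature xylene well of 100 and the oil well of 100. Pcdh9 went from -0.12 to 0.050, 0.086 and 0.015 without the frozen wells of 100 and 10 and the oil well of 10. Leaving out each well in turn gave -0.70 to 0.20 for Cdh4, -3.12 to 0.016 for Cdh9, -1.72 to 1.28 for Pcdh20 and -0.27 to 0.086 for Pcdh9. At unequal depth 1 member was detected in a larger share of FFPE than frozen plate nuclei, and 2 when 5 counts were required. Thinned to 10000 counts a nucleus, 6 of 35 had a larger share in FFPE (Pcdh9, Cdh18, Pcdh11x, Cdh7, Pcdh19 and Cdh1) and 27 a smaller one. For each of these 6 the binomial intervals of FFPE and frozen nuclei overlapped. Cdh1 was seen in 3 FFPE nuclei and 1 frozen nucleus. No share over all genes is given for detection, so these counts are no result about members. Counts of called members moved by over 1.5 times as follows. For SCRB-seq FFPE against frozen wells, 6 members were called; 13 were without a filter on low counts, which tests all 34 members (adding Cdh3 and Cdh23 higher and Cdh2, Cdh6, Cdh11, Pcdh1 and Pcdh10 lower), and 3 in wells of 10 nuclei alone, where 5 could be tested. For oil against heated xylene 0 became 8 without the filter, 2 with nuclei number as a covariate, 1 in wells of 100 and 2 in wells of 10 nuclei. For heated against room-temperature xylene 0 became 2 without the filter, and for oil against room-temperature xylene 1 became 7 without the filter and 3 with the covariate. The share of all genes at the same threshold is not given for the alternatives in this section, so these counts are no result about members. Some calls made without the filter rest on few counts: Cdh3 had 15 and Pcdh1 33 over all SCRB-seq wells. The cause was not tested. For SMART-Seq2 FFPE against frozen wells, leaving out each well in turn gave 0 to 6 called members in place of 5. In plate nuclei, 13 members at least 2-fold apart (7 higher and 6 lower) became 7 by the mean over nuclei, 8 with batch 2 nuclei alone and 7 without each gene's top nucleus, with 1 higher in each; there the 100 CPM minimum was applied anew, and with the same 14 members kept (chosen after seeing the data) the totals were 6, 9 and 8. The sum of members in SCRB-seq wells, higher in FFPE by 0.351 percent of counts, differed by -0.0416 without Cdh18. The highest droplet class was the same for 16 of 24 members in nuclei with at least 300 genes, for 23 by the mean per nucleus and for 24 when Malat1 and mitochondrial UMIs were left out of the scaling. Depth limited which members could be tested: 9 of 34 could be tested in SCRB-seq wells and 24 of 35 in SMART-Seq2 wells. No paired analysis was possible because the labels give no replicate numbers to the wells.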
